A study of Mus musculus with 4 samples.

Results

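Spermatocytes at the end of meiotic prophase and in the meiotic divisions were described in single-cell RNA libraries of mouse testicular organoids (TOs) and mouse testes. A barcode was kept when it held at least 1000 genes and at most 10% of its unique molecular identifiers (UMIs, each standing for 1 captured mRNA molecule) came from mitochondrial genes. A kept barcode was a member when Ccna1, Aurka and Pabpc6 summed to at least 3 UMIs with at least 2 of the genes detected, Ccna1 reached 1 UMI per 10000, the round spermatid genes Ccer1, Chd5, Sun5 and Tex36 summed to less than 3 UMIs per 10000, and the elongating spermatid genes Tnp1, Tnp2, Prm1 and Prm2 held less than 3% of the UMIs. Of 45878 barcodes kept, 874 were members, of which 839 came from testes and 35 from TOs.

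The testes came from 28-day-old mice. The TOs were rebuilt from dissociated testis cells of young ICR mouse pups, so their somatic cells and spermatogonia were those of the pup testis, and were 28 days old by the design label and the study's methods, whereas the dissociation protocol in the labels names day 21. Each group had 2 libraries of unsorted cells, the labels give no engineered allele or drug for any of them, and the study states that the organoids came from separate batches. The study calls the testis libraries biological replicates, but no source used here says how many animals gave each, so p-values measure only the spread between these libraries. The libraries held 14643 and 12491 barcodes in TOs and 12179 and 11826 in testes, with 106577822, 119966959, 77016449 and 74988295 UMIs. Between 30 and 55 cell barcodes were shared by each pair of libraries.

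In late prophase the synaptonemal complex that joins the homologous chromosomes comes apart at diplotene, and the cell then passes through both meiotic divisions within a short time. Cyclin A1, encoded by Ccna1, is the germ cell cyclin needed to leave prophase, and the kinase Aurora A, encoded by Aurka, builds the spindle poles. Pabpc6 encodes a germ cell poly(A)-binding protein. Spermatocytes silence their X and Y chromosomes during pachytene, and store mRNAs for proteins that are made only in spermatids.

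The genes that chose the members are given first, as a description. Ccna1, on the minus strand of GRCm38 chromosome 3 (chr3:55045469-55055501), stood at 328 and 285 counts per 1e6 UMIs (CPM) in the members of testis replicates 1 and 2, with UMIs summed over the members of a library. Aurka (chr2:172356190-172370535) stood at 482 and 460 CPM and Pabpc6 (chr17:9666495-9669717) at 572 and 870 CPM. All 3 genes were lower in every class the members were set against. A pachytene class (18 and 20 barcodes) was defined by Piwil1, Mybl1, Sycp1 and Sycp3, with Ccna1 at 0 and at most 1 UMI of Aurka and Pabpc6 together. Since it was small, a widened pachytene class (286 and 361 barcodes) was added after seeing the data, with Piwil1 and Mybl1 at 2 UMIs together, Ccna1 below 1 UMI per 10000 and no limit on Aurka and Pabpc6, and its values stand beside most of the others. The round spermatid class held 4260 and 2080 barcodes, and a somatic class 1570 and 972. Ccna1 was at 24 CPM in both libraries of the widened class and at 107 and 143 CPM in round spermatids, and Pabpc6 at 295 and 404 CPM and at 74 and 142 CPM.

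Members made up 2.76% (exact binomial 95% interval 2.47 to 3.07, counting error only) and 4.61% (4.23 to 5.02) of the kept testis barcodes, against 0.108% (0.0577 to 0.185) and 0.201% (0.126 to 0.304) in TOs. The testis mean was 3.69% ± 1.31 (SD, n = 2) and the TO mean 0.155% ± 0.0654 (n = 2). These levels moved with the filters, to 7.22% and 0.169% with at least 2000 genes per barcode, 2.68% and 0.0767% under upper limits of 5000 genes and 20000 UMIs, and 2.84% and 0.0748% with Ccna1 at 2 UMIs per 10000. Both testis libraries were above both TO libraries, and a two-sided exact permutation test of 2 libraries against 2 gave p = 0.33, the smallest it can give. Of the kept barcodes with the germ cell gene Ddx4, 4.21% and 7.29% were members in testes and 0.684% and 1.76% in TOs. The order of the groups was thus the same among barcodes with Ddx4. Its detection alone does not show a germ cell, and its background level was not measured. In testes, 1921 and 1940 barcodes met the condition on the sum of Ccna1, Aurka and Pabpc6, 1248 and 1257 of these had enough Ccna1, 329 and 559 were left after the limit on round spermatid genes, and 326 and 513 after that on Tnp and Prm genes. In TOs the same steps left 82 and 98, then 14 and 43, then 13 and 22 barcodes, and the last step removed none.

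At the edge of the rule, testis barcodes with 0.5 to 1 Ccna1 UMI per 10000 but otherwise like members (53 and 73) had 228 and 190 CPM of Aurka and 395 and 592 CPM of Pabpc6. The 50 and 66 members with 1 to 1.5 Ccna1 UMIs per 10000 had 270 and 286 CPM of Aurka and 459 and 847 CPM of Pabpc6. Aurka and Pabpc6 belong to the rule, so their order here supports nothing. Of lists the rule did not use, the entry kinases and regulators summed to 3559 and 4138 CPM inside, below the 4089 and 4448 CPM outside, and the early spermatid genes to 1834 and 1710 CPM inside and 1580 and 1357 CPM outside. Barcodes with no Ccna1 but otherwise like members (169 and 244) held 4358 and 5089 CPM of the entry list. The 179 and 258 members with at least 3 Ccna1 UMIs per 10000 had 571 and 559 CPM of Aurka and 576 and 827 CPM of Pabpc6, with 3789 and 4164 CPM of the entry list, also below the barcodes outside, and 2733 and 2435 CPM of the early spermatid genes.

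Members were deeper than round spermatids and shallower than the widened pachytene class. The median was 10625 and 10982 UMIs and 3712.5 and 3962 genes in testes, against 7020 and 3358 UMIs in the round spermatid class, 17378 and 17143 UMIs in the widened class and 12346.5 and 8861 UMIs in the small one. The minimum of 3 UMIs favours deep barcodes. In TOs the medians were 45855 and 25487.5 UMIs. Upper limits of 5000 genes and 20000 UMIs, which the study applied, would remove 26.7% and 35.9% of the testis members and 69.2% and 50% of the TO members. Of all kept barcodes they would remove 8.45% and 5.98% in testes and 10.3% and 13.6% in TOs. Scrublet, which marks likely doublets, marked 27 and 36 testis members (8.28% and 7.02%) and 1 and 4 TO members (7.69% and 18.2%). It marked 9.74% and 9.19% of all kept barcodes in testes and 11.97% and 10.19% in TOs. The member share was thus above that of all kept barcodes in TO replicate 2 only, where it rests on 4 barcodes.

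Members with a high X-linked share were of more than 1 kind, and many carried RNA of somatic cells. The 59 and 74 testis members with at least 1% X-linked UMIs, a bound chosen after seeing the values, held 5853 and 5854 CPM of 33 markers of Sertoli, Leydig, stromal and endothelial cells and macrophages, against 161 and 153 CPM in the other testis members. In them the Leydig list stood at 2239 and 2248 CPM and the Sertoli list at 2272 and 1574 CPM. These barcodes were shallow, at medians of 7002 and 4552 UMIs, and held 8.86% and 4.63% of the members' UMIs. Ddx4 was detected in 41 of 59 and 54 of 74 of them, and Ybx2, a germ cell RNA-binding protein, stood at 606 and 607 CPM against 1819 and 2046 CPM in the others. In TOs, 4 of 13 and 8 of 22 members had at least 1% X-linked UMIs, with 6011 and 6671 CPM of somatic markers in sum, most of them from the Sertoli list (3970 and 4995 CPM). The somatic RNA was unevenly spread. In TO replicate 2, 4 of the 8 barcodes held 62.1 to 186 somatic marker UMIs per 10000 and the other 4 only 3.03 to 10.7. These last 4 held 9.12 to 18.5 UMIs per 10000 of the pachytene program and 0 to 3.58 of the late spermatid list, against 103 to 137 and 49.8 to 105 in the 14 members of that library below 1%, so their own genes went against the name of late spermatocytes. In TO replicate 1, 2 members were low as well, with 48.9 and 45.4 UMIs per 10000 of the pachytene program and 10.7 and 13.8 of the late spermatid list, against 68.1 to 153 and 43.8 to 69.7 in the other members of that library. The second of these held 0.720% X-linked UMIs and so counts among the members below 1%. In testes, 27 of the 59 and 39 of the 74 barcodes had less than 30 somatic marker UMIs per 10000, also a bound chosen after seeing the values, with a median of 37.8 and 52.6 UMIs per 10000 of the pachytene program against 118 and 108 in members below 1%. Over all members, the somatic markers summed to 666 and 417 CPM in testes and 1740 and 1496 CPM in TOs. The most abundant was Ctsl in testis replicate 1, Cyp17a1, a Leydig gene, in testis replicate 2 and Aard, a Sertoli gene, in both TO libraries, while the Sertoli gene Amh was at 0 in 3 of the 4 libraries. Counts of genes below were therefore also made after leaving out barcodes of every class with at least 10 somatic marker UMIs per 10000. This kept 284 of 326 and 456 of 513 testis members and 5 of 13 and 15 of 22 TO members. Among those kept were 2 of the 4 TO barcodes with a low pachytene program described above. Also kept were 25 of the 27 and 30 of the 39 testis barcodes with at least 1% X-linked UMIs and few somatic markers.

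X-linked RNA was scarce in the members. It made up 0.408% (exact 95% interval 0.402 to 0.413) and 0.240% (0.237 to 0.243) of their UMIs in testes, against 1.36% and 1.03% in round spermatids and 3.22% and 3.26% in the somatic class. The widened pachytene class stood at 0.324% and 0.239%, below the members in replicate 1 and level with them in replicate 2, and the small class at 0.759% and 0.193%. Without the barcodes carrying somatic RNA the members held 0.261% and 0.156%, the small pachytene class 0.208% and 0.193% and round spermatids 1.26% and 0.963%. TO members held 0.606% and 0.552%, and 0.294% and 0.229% without those barcodes. The share depended on depth. Under upper limits of 5000 genes and 20000 UMIs, which remove the deepest members, it was 1.16% and 1.48% in TO members (4 and 11 left) and 0.658% and 0.638% in testis members, against 1.39% and 1.03% in round spermatids of the testes, so the TO members were then not below both of these libraries. They were below the round spermatid class of their own libraries, at 2.48% and 1.97% (4 and 17 barcodes). The shares were not tested, since an exact permutation test of 2 libraries against 2 cannot go below 0.33.

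**Figure D1:**
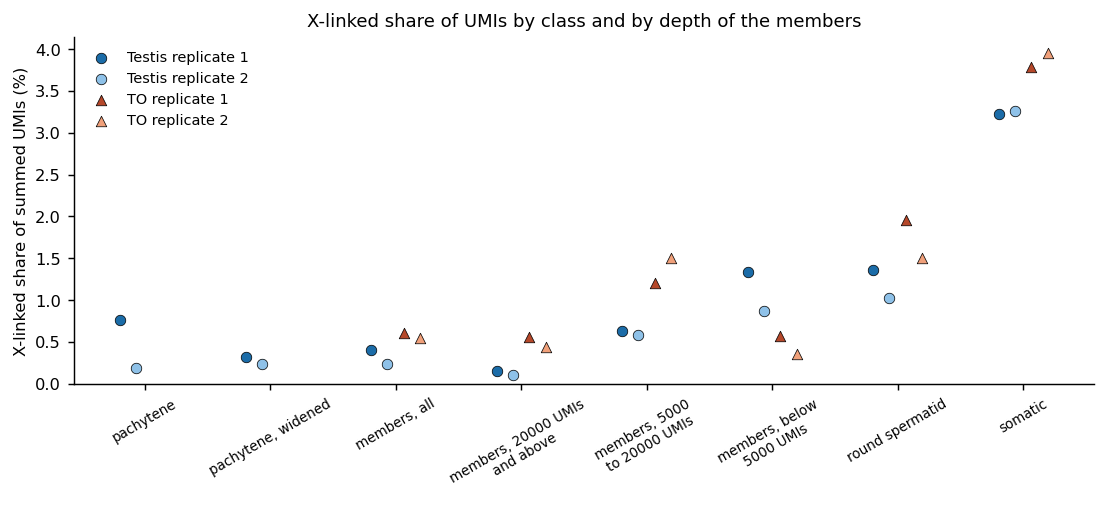
X-linked share of the summed UMIs in percent (vertical axis, from 0) for classes of barcodes and for members in 3 ranges of depth; each point is 1 library, circles for testes and triangles for TOs. Testis members with at least 20000 UMIs sat at 0.157% and 0.110%, below round spermatids at 1.36% and 1.03% and the somatic class at 3.22% and 3.26%.

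In gene tests (edgeR quasi-likelihood F test on UMIs summed per library and class, with the library as a block, with genes called where the log2 fold change passed 1 in size and the p-value, adjusted by Benjamini-Hochberg, was under 0.01), 286 of 552 X-linked genes tested were called lower in members than in round spermatids and 0 higher, with 0 higher also at an unadjusted p under 0.05 and a median log2 fold change of -1.35. Among autosomal genes 26.7% were lower and the median was -0.02. The X-linked gene with the most UMIs in members of both testis libraries was Tmsb4x, an actin-binding protein gene that was more abundant in the somatic class. Tsga8, a gene of spermatids, was next in testis replicate 1 (756 UMIs). In testis replicate 2 Rps4x (669 UMIs) stood above it (592 UMIs). Tsga8 stood at 156 and 61 CPM in members and 951 and 610 CPM in round spermatids. Against the widened pachytene class 48 of 571 X-linked genes were higher (8.41%, against 11.4% of autosomal genes) and 15 lower (2.63%, against 12.8%), and against the small class 8 of 552 (1.45%, against 12.9%) and 7 (1.27%, against 4.20%).

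The silenced X chromosome carries housekeeping genes whose copies on autosomes are used in spermatocytes, and the members held the copies above their X-linked parents. In 3' tag libraries 1 mRNA gives 1 UMI whatever its length, so levels were set side by side without a length scale. Pgk1, a glycolytic enzyme gene, had 10.7 and 3.09 CPM while its copy Pgk2 had 297 and 200 CPM. Pgk2 was at 68 and 49 CPM in the widened pachytene class and at 523 and 372 CPM in round spermatids, and differed from the members in both contrasts (log2 fold change 2.13 and -1.01). In the 8 other pairs of the list the parent was also below the copy in both testis libraries, except for Utp14a and Utp14b in testis replicate 1 and for G6pdx and G6pd2. The ribosomal protein gene Rpl39 had 80.7 and 32.2 CPM against 1481 and 1533 CPM for Rpl39l, and the centrin gene Cetn2 had 6.59 and 3.50 CPM against 1406 and 1627 CPM for Cetn1. Reads of near-identical copies cannot always be assigned to 1 of them in counting, so the levels of such pairs are uncertain. G6pd2, the copy of G6pdx, had 1 UMI in each testis library.

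Members in testes differed from the small pachytene class by 2111 higher genes (12.5% of 16885 tested) and 691 lower genes (4.09%). The classes were drawn from the same barcodes by counts of 15 genes, which were left out of the tests, so calls of other genes describe the stages and do not test the choice of members. The median log2 fold change over all genes was 0.55, so fold changes against this class are shifted upward and are best read relative to that value. Scaled by library totals alone the median was -0.12 and the counts were 751 higher and 1188 lower, and with RLE size factors 1284 and 661. Against the widened class they were 1974 (11.3%) and 2171 (12.5%) of 17431, with a median of 0.05, and 1474 of the 2802 genes called against the small class were called there in the same direction. Markers of somatic cells moved in this contrast. Of the Sertoli markers 7 of 7 were lower in members (median -1.34), of the Leydig markers 5 of 6 higher (1.66) of the stromal markers 4 of 7 higher (1.41) and of the endothelial markers 1 of 5 higher. After leaving out barcodes carrying somatic RNA, which left 248 and 337 in the widened class, 1 of 5 Sertoli markers was lower, 0 of 5 Leydig and 0 of 6 stromal markers were called, and the counts over all genes were 1887 and 2108. Against the small class 4 of 7 Sertoli markers were lower (-1.58), 1 of 6 Leydig and 2 of 7 stromal markers higher, and against round spermatids 1 of 7 stromal and 3 of 7 macrophage markers were lower and 1 macrophage marker was higher. Without barcodes carrying somatic RNA the counts against the small class were 1768 and 517. Against round spermatids 2450 genes were higher (14.5% of 16885) and 4676 lower (27.7%), with a median of -0.06, and 2597 and 4701 without those barcodes.

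**Figure D2:**
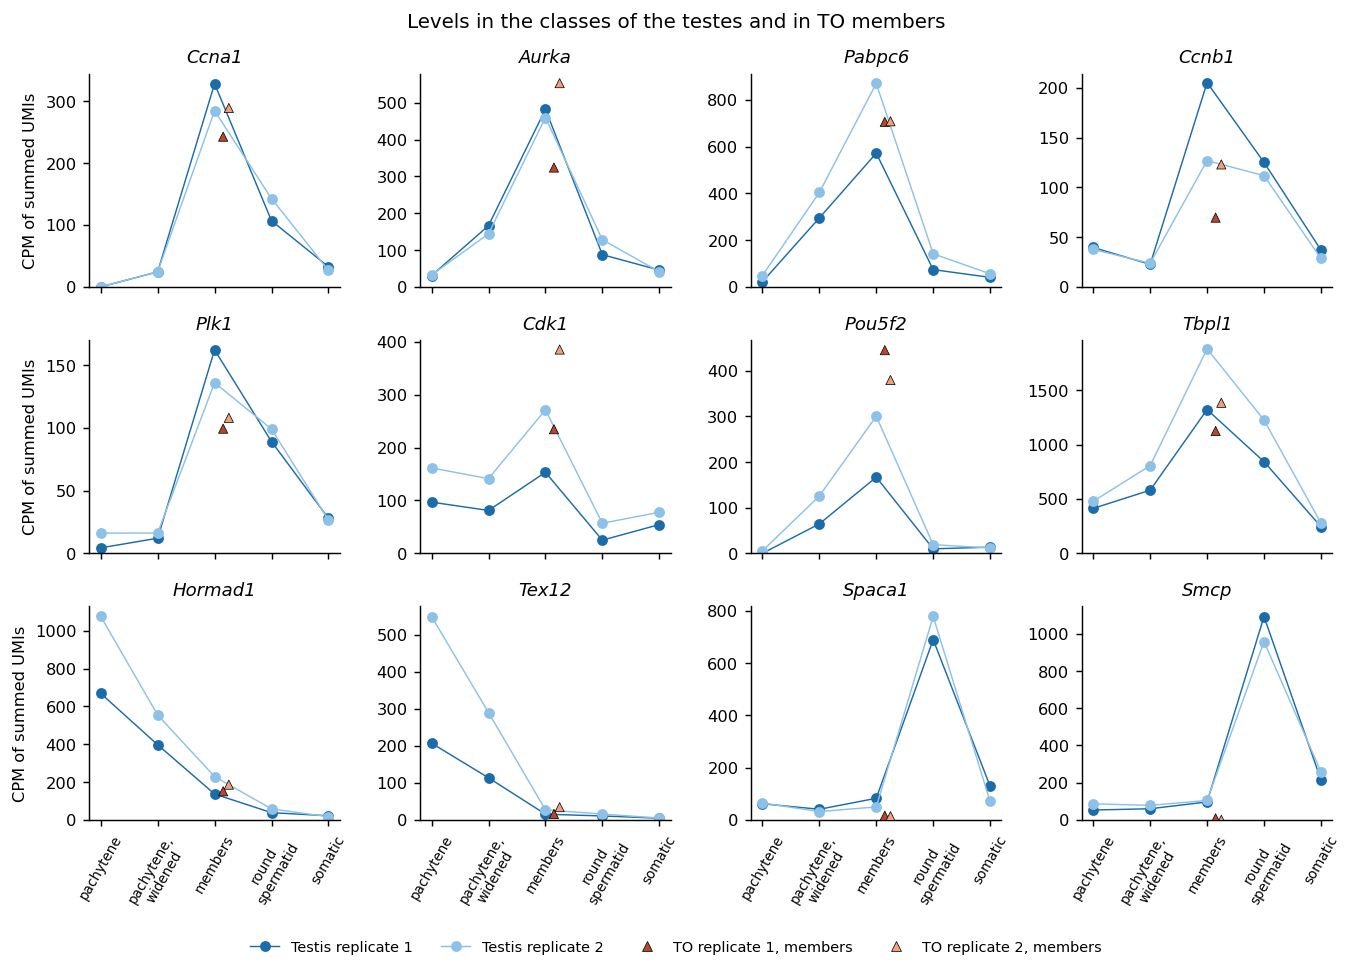
CPM of summed UMIs (vertical axes from 0) of 12 genes in 5 classes of the testes; circles joined by lines are the testis libraries and triangles the members of the TO libraries. Ccna1, Aurka and Pabpc6 chose the members; Pou5f2 stood at 167 and 301 CPM in members, while Smcp peaked in round spermatids at 1093 and 959 CPM.

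Genes that drive entry into division were mixed between the classes. Of 22 tested cyclins, kinases and their regulators, 5 were higher and 2 lower than in the pachytene class (median 0.46), 4 higher and 5 lower of 21 against the widened class (0.01), and 5 higher and 1 lower against round spermatids (0.29). The shares over all genes were 12.5% higher and 4.09% lower against pachytene, 11.3% and 12.5% against the widened class and 14.5% and 27.7% against round spermatids. With lists of about 20 genes, 1 or 2 genes move such a share by a large step, so the counts are descriptions. Ccnb1, cyclin B1 of the division-promoting kinase, stood at 205 and 127 CPM in members, 39.6 and 37.7 CPM in the pachytene class, 22.6 and 23.7 CPM in the widened class and 125 and 112 CPM in round spermatids. Members and both pachytene classes did not overlap, and the difference passed the test (log2 fold change 2.76 ± 0.34 SE, edgeR adjusted p = 3.53e-11, and 2.84 against the widened class), whereas that from round spermatids did not (0.29, edgeR adjusted p = 0.199). Plk1, the Polo kinase of mitotic and meiotic M phase, also stood higher in members than in both pachytene classes. Above round spermatids it stood by less than the fold limit in the CPM of each library. It was at 162 and 136 CPM in members against 4.40 and 16.1 CPM in the small class (1 and 3 UMIs, 4.60 ± 0.47, edgeR adjusted p = 7.53e-15), 12.1 and 16.2 CPM in the widened class (3.44) and 89.1 and 99.1 CPM in round spermatids.

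Cdk1, the kinase itself, instead set the members apart from round spermatids. It stood at 153 and 271 CPM in members, 24.9 and 56.9 CPM in round spermatids and 81.1 and 141 CPM in the widened pachytene class. The members' values lay above those of round spermatids in both libraries (2.27 ± 0.20, edgeR adjusted p = 3.29e-19), and the gene was called against the small pachytene class (1.37) but not against the widened one (0.98). Cks2, a small partner of Cdk1, lay between the stages, with 323 and 592 CPM in members, 1098 and 1572 CPM in the widened class and 56.0 and 87.0 CPM in round spermatids. It was called lower than pachytene (-1.11) and higher than round spermatids (2.48). Hspa2, a chaperone that assembles the kinase in spermatocytes, stood at 1778 and 1899 CPM and was called in none of the 3 contrasts, nor was Eif4g3, a translation factor needed for the division. Ccnb2, cyclin B2, stood at 434 and 358 CPM and was called against the small pachytene class alone (1.51).

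Kinetochore and spindle genes were the lists with the most genes higher than in round spermatids. Of 22 kinetochore and checkpoint genes, 14 were higher and 0 lower (median 1.19), and of 22 spindle and motor genes 11 and 0 (0.95). Against pachytene they were 8 and 0 (0.82) and 4 and 1 (0.70), and against the widened class 5 and 3 (0.12) and 3 and 2 (0.28). Over all genes 14.5% were higher and 27.7% lower than in round spermatids, 12.5% and 4.09% against pachytene, and 11.3% and 12.5% against the widened class. The spindle genes were near the background against both pachytene classes. Birc5, survivin of the chromosomal passenger complex, stood at 442 and 457 CPM in members, 239 and 248 CPM in the widened class and 155 and 210 CPM in round spermatids. Its partner Cdca8 stood at 275 and 326 CPM in members and 33.5 and 48.8 CPM in round spermatids (2.73 ± 0.20, edgeR adjusted p = 7.09e-25), with 297 and 259 CPM in the widened class. Both were above round spermatids in both libraries, but Cdca8 did not set members apart from pachytene. Cenpf, of the outer kinetochore, stood at 292 and 370 CPM against 106 and 136 CPM in round spermatids (1.29), and Bub3, of the checkpoint, was also higher there (1.29). Aurkb, the complex's kinase in most dividing cells, was low, at 43.0 and 76.4 CPM, and higher than in any other class of the testes (3.64 against the small pachytene class, which held 1 and 2 UMIs, 2.61 against the widened one and 2.26 against round spermatids). Aurkc, its germ cell relative, stood at 72.1 and 33.8 CPM and was called against both pachytene classes (3.24 and 1.63) and not against round spermatids (0.86). Among spindle genes, Nusap1, which bundles microtubules, was called in all 3 contrasts (2.78, 1.41 against the widened class and 1.33), and Prc1, of the central spindle, only against round spermatids (2.07). Tpx2, which activates Aurora A on the spindle, stood at 101 and 99.1 CPM against 18.4 and 20.4 CPM in round spermatids (2.21) and was also called against the small pachytene class (1.18) and not against the widened one (0.84), and Tex14, of the bridges between germ cells, was not called.

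Genes of the anaphase-promoting complex, which ends each division by marking its substrates for destruction, were near the counts over all genes in part. Of 19 tested, 6 were higher and 3 lower than in pachytene (median 0.89), beside 12.5% and 4.09% of all genes, and 3 and 3 against the widened class (0.00), beside 11.3% and 12.5%, which is close to the background. Against round spermatids 4 were higher and 1 lower (0.24), beside 14.5% and 27.7%. Pttg1, securin, stood at 542 and 661 CPM in members, 265 and 328 CPM in the widened class and 174 and 320 CPM in round spermatids, and was called in all 3 contrasts. Fbxo43, an inhibitor of the complex, stood at 38.9 and 56.4 CPM against 3.21 and 5.11 CPM in round spermatids (3.36 ± 0.30, edgeR adjusted p = 8.04e-19). Ube2s, an ubiquitin-conjugating enzyme of the complex, was abundant in all stages, at 1564 CPM in both member libraries, and was called in none, nor was the subunit gene Anapc11. Cdc20, the activator of the complex, stood at 456 and 549 CPM against 149 and 278 CPM in round spermatids (1.15).

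**Figure D3:**
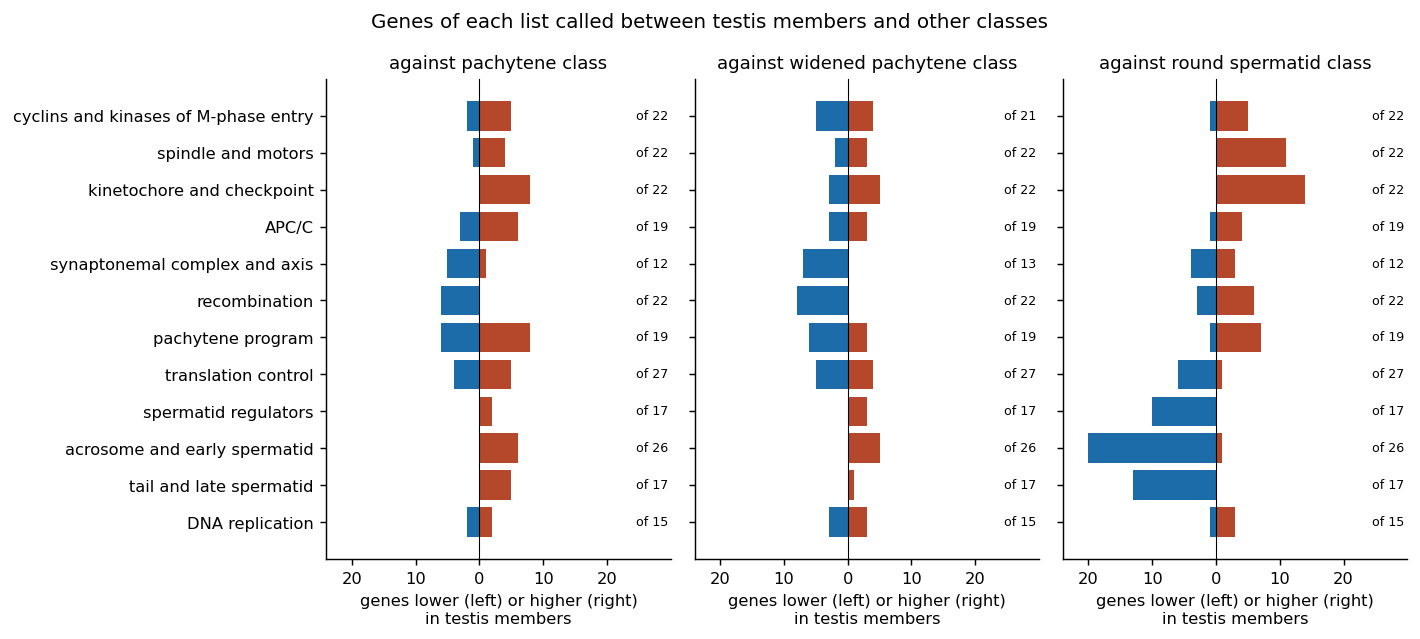
Number of genes of each list called lower (left, blue) or higher (right, red) in testis members than in the pachytene, widened pachytene and round spermatid classes, with the number tested at the right. Of the acrosome and early spermatid list, 20 of 26 were lower than in round spermatids, and of the kinetochore and checkpoint list 14 of 22 were higher.

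A part of the genes of the synaptonemal complex and of recombination was lower in members than in pachytene. Of 12 tested axis genes 5 were lower and 1 higher (median -0.82), and against the widened class 7 of 13 were lower and 0 higher (-1.23). Of 22 recombination genes 6 were lower and 0 higher (-0.84), and 8 and 0 against the widened class (-0.82). Over all genes 4.09% were lower and 12.5% higher than in pachytene, and 12.5% lower and 11.3% higher against the widened class. Hormad1, an axis protein that leaves synapsed chromosomes, stood at 136 and 229 CPM in members, 669 and 1076 CPM in pachytene, 397 and 555 CPM in the widened class and 38.0 and 57.8 CPM in round spermatids. The members lay between pachytene and round spermatids in both libraries and differed from each (-1.61 ± 0.20 and 1.75 ± 0.19). Tex12, of the central element, did not differ from round spermatids by the test (0.50), at 15.2 and 27.2 CPM against 207 and 549 CPM in pachytene (-3.45), 114 and 290 CPM in the widened class (-3.13) and 10.4 and 15.5 CPM in round spermatids. Syce1, also of the central element, went the other way, at 559 and 468 CPM in members against 295 and 231 CPM in pachytene (1.63), though it was not called against the widened class (0.51). Sycp2, of the axis, was called lower against the widened class (-1.31) and higher than in round spermatids (1.39), and the cohesin gene Smc1b was called in none. Meiob, which acts on recombination intermediates, stood at 11.3 and 17.0 CPM against 106 and 188 CPM in pachytene (-2.70) and 52.0 and 86.9 CPM in the widened class (-2.22), whereas Mlh3, of the crossover complex, was not called against pachytene (-0.35) and was higher than in round spermatids (3.12). Cntd1 and Hsf2bp, which act in crossover formation and strand exchange, were higher than in round spermatids (1.32 and 1.05) and not called against pachytene, and Brdt, a reader of acetylated histones, was called in none.

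The 19 tested genes of the pachytene program split, with 8 higher and 6 lower than in pachytene (median 0.68), 3 and 6 against the widened class (-0.21) and 7 and 1 against round spermatids (0.66), beside 12.5% and 4.09%, 11.3% and 12.5%, and 14.5% and 27.7% of all genes. Ldhc, the germ cell lactate dehydrogenase, was the most abundant at 6414 and 5532 CPM, against 5430 and 4670 CPM in the widened class and 5526 and 4603 CPM in round spermatids, and was called against the small class alone (1.68). Adam3, a sperm surface protein, stood at 735 and 692 CPM, 309 and 313 CPM in the widened class and 595 and 604 CPM in round spermatids, so it was called against both pachytene classes (3.36 and 1.25) and not against round spermatids (0.09). Clgn, a chaperone of sperm surface proteins, and Tcfl5, a transcription factor gene, were called against the small class alone (1.08 and 1.25). Of 27 genes of translation control 5 were higher and 4 lower than in pachytene (0.56), 4 and 5 against the widened class (-0.11) and 1 and 6 against round spermatids (-0.12). The translation genes were near the shares of all genes against the widened class and for genes lower than in round spermatids, and below the share for genes higher than in round spermatids. Ybx2, which binds stored mRNAs, stood at 1712 and 1980 CPM in members, and was called in none of the contrasts. Ybx1 and Pabpc1 were not called either, and Ybx3, a relative of Ybx2, was called against the small class alone (1.43). Pabpc2, a retrogene of the poly(A)-binding family, was higher than in both pachytene classes (3.30 and 1.21), and Dazl, which promotes translation in earlier germ cells, was lower (-2.91 and -2.20).

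Most genes of the spermatid lists were lower in members than in round spermatids. Of 26 acrosome and early spermatid genes 20 were lower than in round spermatids and 1 was higher (median -3.62), and of 17 tail and late spermatid genes 13 and 0 (-2.62). Against pachytene 6 and 5 of these were higher and 0 lower, and against the widened class 5 and 1. Over all genes 27.7% were lower and 14.5% higher than in round spermatids, 12.5% were higher than in pachytene and 11.3% than in the widened class, so the 1 of 17 late genes higher there was below the background. Spaca1, of the acrosomal membrane, stood at 82.6 and 49.5 CPM in members and 690 and 779 CPM in round spermatids (-3.68 ± 0.21, edgeR adjusted p = 5.35e-33). Smcp, of the sperm mitochondrial capsule, stood at 96.4 and 104 CPM against 1093 and 959 CPM. The testis somatic class, which should express neither, had 129 and 70.4 CPM of Spaca1 and 216 and 259 CPM of Smcp, above the members' values in both libraries. Zpbp2, of the acrosome, stood at 690 and 631 CPM in members against 112 and 69.1 CPM in the somatic class, 244 and 213 CPM in the widened pachytene class and 470 and 413 CPM in round spermatids. Zpbp2 was called against both pachytene classes (3.26 and 1.58) and not against round spermatids (0.42). The next genes were named for being among the most abundant of their lists. Acr, Zpbp and Dpy19l2, all of the acrosome, were called against the small pachytene class (1.99, 2.27 and 2.36) and not against round spermatids. Odf2, of the outer dense fibres, stood at 1346 and 1142 CPM, Tcp11 at 1012 and 797 CPM and Fabp9 at 2741 and 3049 CPM, and none of them was called against round spermatids. Tekt4, a tektin of the sperm tail, lay between the stages, at 417 and 235 CPM in members, 74.8 and 59.2 CPM in pachytene and 827 and 546 CPM in round spermatids (2.95 and -1.26), with 86.8 and 48.0 CPM in the widened class (2.32).

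Of 17 regulators of spermatid genes, 2 were higher than in pachytene and 0 lower (median 0.89), 3 and 0 against the widened class (0.09) and 0 and 10 against round spermatids (-1.41). The genes higher than in both pachytene classes were near the 12.5% and 11.3% of all genes, and the 10 stand beside 27.7%. Tbpl1, a relative of the TATA-binding protein, stood at 1322 and 1880 CPM in members, 581 and 806 CPM in the widened class and 843 and 1226 CPM in round spermatids (2.48 against pachytene, 1.25 against the widened class and 0.47 against round spermatids, the last not called). Crem, an activator of spermatid genes, stood at 296 and 247 CPM against 512 and 457 CPM in round spermatids, and missed the fold limit (-0.999, edgeR adjusted p = 1.09e-06). Its partner Fhl5 was lower, at 26.8 and 12.4 CPM against 257 and 227 CPM (-3.88). Zfp541 and Kctd19, partners in a complex of late prophase, were not called against round spermatids (0.85 and 0.84).

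Outside the lists, the gene with the largest change against the small pachytene class among those of at least 100 CPM in either class in both libraries was Pou5f2 (chr13:78024902-78026295), a POU-domain transcription factor gene. It stood at 167 and 301 CPM in members, 0 and 5.38 CPM in the small pachytene class, 64.6 and 126 CPM in the widened class and 9.94 and 19.1 CPM in round spermatids. The members were above every other class of the testes in both libraries (7.19 ± 0.58 against pachytene, 1.36 against the widened class and 3.86 ± 0.22 against round spermatids, edgeR adjusted p = 1.67e-20, 1.11e-08 and 2.25e-32). It rose with depth in both classes. Members with at least 20000 UMIs stood at 280 and 367 CPM against 96.8 and 155 CPM in the widened class of that depth, and those below 20000 UMIs at 53.0 and 92.7 CPM against 24.6 and 44.0 CPM, so members were above the class in each range. The next 7 were 1700108N11Rik, A730035I17Rik, Arc, 1700017G19Rik, Gm26512, Tekt3 and Gm42918 (6.93 to 5.70), all of them also higher than in the widened class and none called against round spermatids. The small class held 1 to 3 UMIs of each of these 8 genes, so the size and the order of these changes rest on few counts. With 1 testis replicate left out they ran from 4.10 to 6.58. Against the widened class the order was another, from 2.43 for Arc and 2.21 for 1700017G19Rik, through Gm42918, 1700108N11Rik and A730035I17Rik, to 1.65 for Tekt3, 1.36 for Pou5f2 and 1.34 for Gm26512. Arc stood at 124 and 108 CPM in members, 4.40 and 0 CPM in pachytene and 79.7 and 71.3 CPM in round spermatids. The genes with the largest fall were Gml (21.0 and 22.3 CPM against 383 and 495 CPM, -3.68), Ube2e2, Hpse2, Ktn1, Tex12, Gm49794, Exosc7 and Gml2, and all 8 were also called lower against the widened class.

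Against round spermatids the largest rises were in 4930581F22Rik (198 and 296 CPM against 10.7 and 17.3 CPM, 3.99), Pou5f2, Mgll, Tcam1, Bcl2l12, Rassf1, 4930578E11Rik and Ube2t. Tcam1, a testis cell adhesion gene, stood at 134 and 133 CPM against 13.4 and 13.8 CPM, and was not called against pachytene (0.17). Of these 8 only Pou5f2 was called higher against both pachytene classes, while 4930581F22Rik (0.51 against the widened class), Rassf1 (0.04) and 4930578E11Rik passed against the small class alone and Mgll was lower than in the widened class (-1.08). The direction for 4930578E11Rik turned with the class, from 1.23 against the small class to -0.88 against the widened one, where members stood at 141 and 184 CPM against 265 and 353 CPM. The largest falls were in Gm41225, 4933404G15Rik, Gm30954, Zfp804b, Iqca1l, 1700121L03Rik, Gm47841 and Fam24b. Fam24b stood at 32.9 and 17.3 CPM in members and 550 and 503 CPM in round spermatids (-4.63).

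The 120 bases before the RefSeq start sites of Aurka and Pou5f2 are printed. Aurka defined the members. Pou5f2 had the largest change against the small pachytene class outside the lists, among genes of at least 100 CPM in either class in both libraries. They were read from RefSeq promoters of GRCm38.p6, 5′ to 3′ on the strand of the gene, Aurka at chr2:172370571-172370690 on the minus strand and Pou5f2 at chr13:78024782-78024901 on the plus strand. The capitals mark matches, on either strand, to 4 motifs. These were AACNG, the core of the site of MYB proteins, the CCAAT box, the GC box GGGCGG, and TTTGAA, the core of an element of cell cycle genes. For Aurka the start site used lies upstream of the GENCODE gene start at 172370535, so its window does not adjoin the gene as placed above. The Aurka window overlaps 10 bases of an exon of Cstf1, and the Pou5f2 window overlaps no other exon.
Aurka: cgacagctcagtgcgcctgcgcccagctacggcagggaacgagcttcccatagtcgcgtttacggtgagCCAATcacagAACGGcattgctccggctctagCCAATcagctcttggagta
Pou5f2: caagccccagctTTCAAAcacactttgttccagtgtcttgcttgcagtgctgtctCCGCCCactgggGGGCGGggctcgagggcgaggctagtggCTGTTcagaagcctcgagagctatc

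Counted from the RefSeq start site, Aurka held AACNG at -41 and CCAAT at -51 and -19. Pou5f2 held AACNG on the opposite strand at -25, GGGCGG at -53 and on the opposite strand at -65, and TTTGAA on the opposite strand at -108. Among 32851 promoter windows of this length, 46.9% held AACNG, 21.3% CCAAT, 26.5% GGGCGG and 7.12% TTTGAA, so none of the matches is rare, and binding was not measured.

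Within the members, depth ordered the barcodes. Testis members with at least 20000 UMIs (77 and 179) held 0.157% and 0.110% X-linked UMIs, those with 5000 to 20000 UMIs (208 and 173) 0.628% and 0.584%, and those below 5000 UMIs (41 and 161) 1.33% and 0.872%. Across barcodes, the Spearman correlation of UMIs with the X-linked share was -0.70 (n = 326) and -0.67 (n = 513), and with the share of Tnp and Prm UMIs -0.84 and -0.87. These are correlations over barcodes of 1 library, in which depth enters both measures. Somatic markers moved with depth as well, at 213 and 135 CPM in the deepest range, 1005 and 1129 CPM in the middle and 3482 and 1919 CPM in the shallowest, and their part in the order was not tested.

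**Figure D4:**
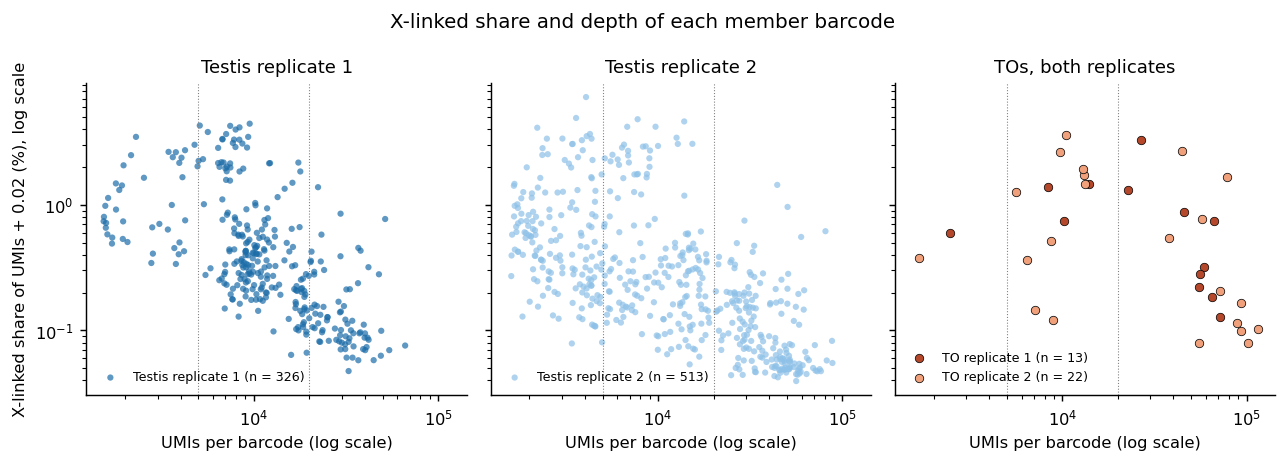
X-linked share of UMIs plus 0.02 (percent, log scale) against UMIs (log scale) for each member barcode, with dotted lines at 5000 and 20000 UMIs. Deep testis members gathered near 0.1%, while a group of shallow ones and 12 of 35 TO members reached 1% or more.

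Named genes moved with depth too. Pou5f2 stood at 280 and 367 CPM in the deepest testis members, 53.5 and 87.9 CPM in the middle range and 43.2 and 111 CPM in the shallowest. Pabpc6 stood at 688 and 970 CPM in the deepest range and 311 and 509 CPM in the shallowest, and Ybx2 at 1892 and 2141 CPM and at 924 and 1233 CPM. Ccna1 ran the opposite way, from 283 and 262 CPM to 510 and 456 CPM, which its place in the rule favours, since a shallow barcode passes only with a high rate. Aurkc, Sycp2 and Ldhc were also lowest in the shallowest range, Ldhc in testis replicate 1 only. Acrv1, an acrosomal gene, ran from 45.8 and 12.8 CPM to 225 and 107 CPM, and Prm1, a protamine gene of elongating spermatids and part of the rule, from 194 and 685 CPM to 1840 and 2527 CPM. Spindle and kinetochore genes varied together from barcode to barcode (Spearman correlation of their summed rates 0.55 and 0.50, n = 326 and 513), and the spindle list ranged from 5.09 UMIs per 10000 at the lowest decile to 21.5 at the highest in testis replicate 1 and from 5.54 to 24.1 in testis replicate 2.

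The 35 TO members were compared with the 839 testis members, chosen by the same genes. They held 243 and 289 CPM of Ccna1, 324 and 553 CPM of Aurka and 706 and 708 CPM of Pabpc6. Of 12237 genes tested, 5 were higher in TO members (0.0409%) and 12 lower (0.0981%), with 2238 genes at an unadjusted p under 0.05. The count depended on the libraries and the method. DESeq2 called 90 higher and 120 lower, and under the upper limits the balance turned, with 39 higher and 8 lower. Without TO replicate 1 it was 213 higher and 379 lower, without TO replicate 2 101 and 172, without testis replicate 1 149 and 195, and without testis replicate 2 120 and 348, where the lone library of a group is assumed to vary like the others. All 17 genes were called in each of the 4 fits without 1 library. DESeq2 called 16 of them and not Smcp (adjusted p = 0.129). With Scrublet doublets removed 4 of the 17 were called, Gm3417, 1700104B16Rik, Hils1 and Aard. All 17 kept their sign there, and most of the calls were lost by little, at an edgeR adjusted p of 0.0104 to 0.0111, with 0.0199 for Mgp and 0.067 for Dcn. Folds of lost genes such as Ropn1 (-4.07, from -3.64) and Fam71e1 (-4.59, from -4.07) were not smaller. By library totals 11 were called, and 7 under the upper limits, where TO replicate 1 held 4 members and Aard changed sign (-0.37). Gm3417 and 1700104B16Rik were called in all 3. The 5 TO members of replicate 1 left after removing barcodes with somatic RNA are fewer than the minimum of 10 set for this test, and the fit gave 17 and 138 genes. Without the members of at least 1% X-linked UMIs, an alternative added after seeing the data that left 9 in TO replicate 1, also under the minimum, it gave 2 and 16, and 10 of the 17 genes were called again, Gm3417 and 1700104B16Rik among them.

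The lists of the cell division machinery held no called gene between TO and testis members, which is no result about them, since 17 of 12237 genes were called in all. None of 21 entry kinases (median -0.04), 22 spindle genes (-0.07), 21 kinetochore genes (-0.24), 18 genes of the anaphase-promoting complex (-0.16), 11 axis genes (-0.14) and 17 recombination genes (-0.17) passed the edgeR test, beside a median of -0.03 over all genes. At an unadjusted p under 0.05, 3 of these 110 genes were higher and 8 lower, beside 2238 of all 12237, and DESeq2 called 1 of them, Syce2, which was most abundant in round spermatids (470 and 469 CPM) and had 3 and 28 UMIs in TO members, against 367 and 717 UMIs (75.6 and 73.8 CPM) in testis members. Cdk1 stood at 235 and 385 CPM in TO members against 153 and 271 CPM in testes (0.51 ± 0.31 SE, edgeR adjusted p = 0.443), and Plk1 at 99.4 and 108 CPM against 162 and 136 CPM (-0.57 ± 0.23, edgeR adjusted p = 0.21). The Cdk1 values of the groups overlapped and those of Plk1 did not. With this few members a p above the threshold does not show that levels were alike. Pou5f2 stood at 445 and 380 CPM in TO members, above both testis libraries, and was not called (0.76, edgeR adjusted p = 0.163). The direction differed with the filter on depth. Under the upper limits it was -0.64, and among members below 20000 UMIs the TO libraries held 28.6 and 71.6 CPM (1 and 7 UMIs) against 53.0 and 92.7 CPM in testes. Without testis replicate 2 the gene was called (1.22).

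Among the 12 genes lower in TO members, 11 were at a higher level in the testis somatic class than in the testis members, in both libraries, and all 11 were also called lower in members than in round spermatids. Of all 12237 genes tested, 47.3% were at a higher level in the somatic class in this way, and 12.3% were also called lower than in round spermatids. They were 1700003F12Rik, 1700009N14Rik, Cdiptos, Fam71e1, Gm9999, Gsg1, Hils1, Hmgb4, Ropn1, Smcp and Tssk2. Smcp stood at 7.95 and 0 CPM in TO members and 96.4 and 104 CPM in testis members, while the testis somatic class held 216 and 259 CPM and the TO somatic class 0.160 and 0.414 CPM. Hmgb4, a spermatid chromatin protein, had 0 UMIs in TO members and 55.0 and 39.5 CPM in testis members, and with a floor of 3 UMIs over both TO libraries its level was at least 22.6-fold lower (7.92-fold and 14.7-fold with the floor of TO replicate 1 or 2 alone). The testis somatic class held 146 and 112 CPM of it. The 11 genes stood at 75.1 CPM or more in the testis somatic class, and the part of free spermatid RNA in these calls was not tested. Over the lists, 2 of 25 early spermatid genes (median -3.63) and 4 of 15 late spermatid genes (-2.36) were lower and 0 higher, beside 0.0981% lower and 0.0409% higher of all genes and a median of -0.03.

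**Figure D5:**
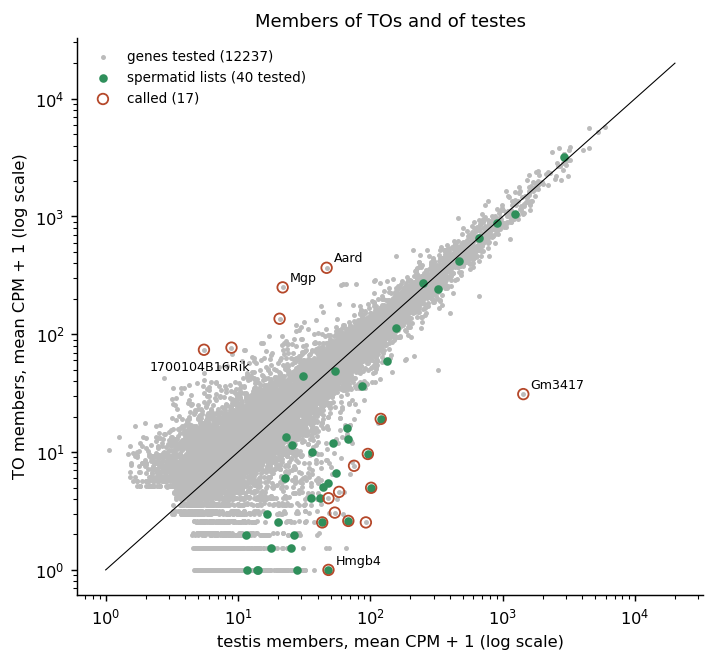
Mean CPM plus 1 of each tested gene in testis members (horizontal) and TO members (vertical), both on log scales, with the line of equal levels; green points are the spermatid lists and open circles the 17 genes called. Gm3417 lay at 1240 and 1617 CPM in testis members and 25.8 and 34.2 CPM in TO members, and Hmgb4 at 55.0 and 39.5 CPM and at 0.

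Gm3417, on chromosome 17, was the exception. It stood at 1240 and 1617 CPM in testis members and 25.8 and 34.2 CPM in TO members (-5.59 ± 0.29, edgeR adjusted p = 1.37e-05), and the groups were far apart in every library. In testes it was at 598 and 850 CPM in pachytene, 1036 and 1330 CPM in round spermatids and 264 and 240 CPM in the somatic class, so the members stood well above the somatic class. In the round spermatid class of TOs, which held 5 and 35 barcodes, it was at 31.1 CPM (1 UMI) and 6.98 CPM. Among members with at least 20000 UMIs it stood at 1333 and 1721 CPM in testes and 25.6 and 34.7 CPM in TOs. Reads of genes with near-identical copies cannot always be assigned to 1 of them, which makes the level of a single predicted gene uncertain.

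Of the 5 genes higher in TO members, Aard, Dcn and Mgp were genes of somatic cells. Aard stood at 332 and 399 CPM against 61.6 and 29.8 CPM in testis members, with 1833 and 1282 CPM in the TO somatic class, and in members with less than 1% X-linked UMIs it was at 62.6 and 24.1 CPM in TOs and 8.58 and 7.98 CPM in testes. 1700104B16Rik, on chromosome 8, stood at 95.4 and 50.3 CPM in TO members and 4.94 and 4.11 CPM in testis members (3.92 ± 0.42, edgeR adjusted p = 0.0064), with 0.890 and 0.255 CPM in the TO somatic class. It was also at 62.2 CPM (2 UMIs) and 72.1 CPM in the round spermatid class of TOs against 1.95 and 1.44 CPM in that of testes. With genes left out whose level in the somatic class of either group was at least that of the members, Gm3417 and 1700104B16Rik were the 2 genes called between TO and testis members.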

How the data were processed

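The deposited files held raw UMI counts per gene and barcode of 4 10x Genomics 3' libraries, made by the authors with Cell Ranger 7.1.0 on mm10 (GRCm38), with no normalization. The study's doublet removal (DoubletFinder) and upper limits were not applied to the files used here. The counts were read in Python 3.11.15 (numpy 2.4.6, scipy 1.17.1, pandas 2.3.3, matplotlib 3.10.9), and gene positions came from GENCODE, in which 32158 of 32285 gene IDs were found. Library totals ran from 74988295 to 119966959 UMIs. Intervals cover counting error only.

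UMIs were summed per library and class and tested with edgeR 4.0.16 in R 4.3.3 (TMM, filterByExpr, quasi-likelihood F test), with the library as a block for classes of the testes and no block between TOs and testes. The study tested cells, which are not replicates, with the same limits on p and fold and a further limit on the size of the expression difference. A library had to hold at least 10 members to be tested; 3 alternatives of the TO comparison broke this minimum in TO replicate 1, with 4, 5 and 9 members. The scripts were tested on simulated data with 200 known changes per comparison. Of these, 50 (25%) were called against the small pachytene class, 166 (83%) against round spermatids and 99 (49.5%) between TO and testis members. Unchanged genes called numbered 0, 2 and 2. Many changes were thus missed, most of all against the small pachytene class, so a gene not called was not shown to be unchanged. Doublets were not removed in the main counts; Scrublet (scanpy 1.11.5) at 0.8% per 1000 barcodes was an alternative, as were DESeq2 1.42.0, other scalings and filters, thinning to 3000 UMIs and leaving out each library. The somatic class held at least 50 somatic marker UMIs per 10000 and no Ddx4.

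The members, lists and classes were chosen with earlier results of these data known. Genes were named by rule as the 8 called genes with the largest change in each direction with at least 100 CPM in either class in both libraries, the 4 most abundant tested genes of each list, and all pairs of X-linked genes and copies. Ccnb1, Plk1, Cdk1, Aurkb, Aurkc, Fbxo43, Pabpc2, Dazl, Spaca1, Smcp, Syce2, Fhl5, Acrv1, Tsga8, Rps4x and Tmsb4x, and the genes named among the 17 called between TO and testis members, were chosen after their values were seen. 1 of these 17 is not reported here.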

Additional observations from a re-analysis of the deposited data

How the results depend on the processing

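Of 146 alternatives of the main results, 92 were counted as the same. That meant the same direction for the difference in member share and a count within 1.5 times for barcodes and genes. For X-linked shares and medians it meant a shift below the SD of the 2 libraries. Leaving out 1 of 2 libraries always meets that last bound, so those alternatives could not come out otherwise and the 92 does not measure stability. The causes of the other changes were not tested. Member barcodes numbered 4 and 11 in TO replicates 1 and 2 and 329 in testis replicate 2 under the study's upper limits, 7 and 10 in TOs with Ccna1 at 2 UMIs per 10000, and 5 in TO replicate 1 without barcodes carrying somatic RNA. Against pachytene, the number of genes higher was 1182 with DESeq2, 751 by library totals, 1284 with RLE size factors, 1024 under the upper limits and 725 after thinning to 3000 UMIs, and of genes lower 1188 by totals, 434 under the limits, 108 thinned, 2171 against the widened class and 2108 there without barcodes carrying somatic RNA. Against round spermatids, genes higher were 1276 with DESeq2, 1224 under the limits and 999 thinned, and genes lower 2766 thinned. Between TO and testis members, genes higher were 90 with DESeq2, 172 with all genes of any count, 2 without Scrublet doublets, 1 without genes of the somatic class, 17 without barcodes carrying somatic RNA, 2 without members of at least 1% X-linked UMIs and 39 under the limits, and 101 to 213 without 1 library; genes lower were 120, 6 by totals, 548, 2, 1, 138 and 8 under the limits, and 172 to 379 without 1 library.

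Under the upper limits, which remove the deepest members, the X-linked share was 0.648% in testis members (0.324% as reported, the mean of both libraries) and 1.32% in TO members (0.579%), the medians were 7082 UMIs and 3049 genes in testis members and 9052 UMIs and 3545.75 genes in TO members. The TO share was 0.486% without Scrublet doublets and 0.262% without barcodes carrying somatic RNA. With 1 library left out, the difference in member share ran from 2.61 to 4.46 points and the X-linked share from 0.240% to 0.408% in testis members, 0.193% to 0.759% in pachytene, 1.03% to 1.36% in round spermatids and 0.552% to 0.606% in TO members. The medians ran from 10625 to 10982 UMIs and 3712.5 to 3962 genes in testis members, and from 25487.5 to 45855 UMIs and 5630 to 6973 genes in TO members. Class comparisons with 1 testis library left out had no residual degrees of freedom and gave fold changes with no test. The sign turned for these somatic markers. Against pachytene, Aard went to 0.42 without barcodes carrying somatic RNA and ranged from -2.64 to 1.88 with 1 testis replicate left out, Acta2 to -0.42 without those barcodes (-0.091 against the widened class) and Clu ranged from -2.75 to 0.29 with 1 testis replicate left out. Between TO and testis members Aard went to -0.37 under the limits, Cyp11a1 ranged from -2.31 to 1.64 with 1 TO replicate left out, and Insl3, with 0 UMIs in the members of TO replicate 2, went to -10.48 without TO replicate 1, a value set by the prior count.

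Without the library as a replicate block, the genes called were 983 higher and 177 lower against pachytene and 1220 higher against round spermatids. TO and testis libraries share only a replicate number: the difference between replicates 1 and 2 correlated at 0.04 between TO and testis members over 12237 genes, and a fit with the number as a block called 61 genes higher and 166 lower in TO members. The small pachytene class of 18 and 20 barcodes and the 13 and 22 TO members limit the precision, as do the 2 libraries in each group.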

Other observations

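DNA replication genes were mixed. Of 15 tested, 2 were higher and 2 lower in members than in the pachytene class (median log2 fold change -0.35), 3 and 3 against the widened class (-0.28) and 3 and 1 against round spermatids (0.13). Over all genes 12.5% were higher and 4.09% lower than in the pachytene class (median 0.55), 11.3% and 12.5% against the widened class (0.05) and 14.5% and 27.7% against round spermatids (-0.06), so the number of replication genes higher than in pachytene was near the background. Pcna, the sliding clamp of DNA polymerase, stood at 88.7 and 142 CPM in members against 35.1 and 57.5 CPM in round spermatids (1.16), and Rrm1, a subunit of ribonucleotide reductase, was also higher there (1.04). Slbp, which binds histone mRNAs, and Mcm7, of the replicative helicase, were called in none of the contrasts.

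Markers of earlier germ cells were not uniformly lower in members than in pachytene. The spermatogonial list had a median log2 fold change of 1.21 (0 of 7 higher, 1 lower) and 0.36 against the widened class (0 and 1 of 8). The early spermatocyte list had -1.31 (0 of 6 higher, 2 lower) and -1.09 (0 and 3). Over all genes the medians were 0.55 and 0.05, with 12.5% and 11.3% higher and 4.09% and 12.5% lower. The spermatogonial list summed to 81.3 and 84.2 CPM in testis members and 109 and 158 CPM in TO members, with Id4 the most abundant, and the early spermatocyte list to 42.8 and 38.9 CPM and to 25.8 and 49.2 CPM.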
